A study of Homo sapiens with 54 samples.

Results

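The genes described here are 48 genes of the DNA replication machinery, chosen by name as licensing factors, the replicative helicase with its activators, polymerase and fork proteins, and enzymes of nucleotide supply. They are 48 of the 55906 gene rows in each of 4 expression tables. All 48 were found in every table and all 48 passed the filter on low values in every cell line. Licensing had 9 members (*ORC1* to *ORC6*, *CDC6*, *CDT1*, *GMNN*), the helicase group 15 (*MCM2* to *MCM8*, *MCM10*, *CDC45*, *GINS1* to *GINS4*, *CDC7*, *DBF4*), the polymerase and fork group 20 (*POLA1*, *POLA2*, *PRIM1*, *PRIM2*, *POLD1* to *POLD3*, *POLE*, *POLE2*, *PCNA*, *RFC1* to *RFC5*, *FEN1*, *LIG1*, *RPA1* to *RPA3*) and nucleotide supply 4 (*RRM1*, *RRM2*, *TYMS*, *TK1*).

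A cell licenses its replication origins before S phase. The origin recognition complex, with CDC6 and CDT1, loads the MCM2 to MCM7 ring onto DNA, and geminin (GMNN) blocks CDT1 so that origins are not loaded again. At the start of S phase the kinase CDC7 with its partner DBF4, together with MCM10, turns the loaded ring into the active helicase by adding CDC45 and the GINS complex. DNA polymerase alpha with primase then lays primers, polymerases delta and epsilon extend them while held by the PCNA clamp, RFC loads that clamp, RPA covers single strands, and FEN1 and LIG1 join the lagging-strand pieces. Ribonucleotide reductase (RRM1 and RRM2), thymidylate synthase (TYMS) and thymidine kinase (TK1) supply the nucleotides. Many of these genes are transcribed in late G1 and S phase under E2F factors, so their RNA level is widely used as a sign of cycling cells.

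The libraries came from a study of the paralogous splicing factors TRA2A and TRA2B in 54 bulk poly(A) RNA-seq libraries, 3 for each of 18 groups. The lung cancer lines A549 and NCI-H23 stably carried Zim3-dCas9, a Cas9 that does not cut and is fused to a repressor domain, and were collected 5 days after lentiviral transduction with guides against a safe-harbor site (Control KD), *TRA2A* (TRA2A KD), *TRA2B* (TRA2B KD) or both genes (TRA2A/B DKD). The glioma lines LN229 and LN319 stably overexpressed either luciferase (Luc) or a *TRA2B* cDNA (TRA2B-OE) and were collected 7 days after transduction with cutting Cas9 and a guide. Their groups were Luc Control KO, Luc TRA2A KO, Luc TRA2B KO, TRA2B-OE Control KO and TRA2B-OE TRA2A KO. All knockouts and knockdowns were populations, not clones. The labels do not say whether the 3 replicates of a group were separate cultures, so p-values measure the spread between these libraries, which may be technical.

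Levels are given in TPM, a relative abundance of transcripts that accounts for their length. Fold changes are on the scale log2(scaled TPM + 0.1), positive where the perturbed group was higher. Their SE comes from the limma fit over all libraries of the line. Each fold change was tested with limma in 1 fit per cell line, two-sided. The Benjamini-Hochberg adjustment was taken over every gene tested in that comparison. A gene is said to rise or fall where adjusted p was below 0.05. Tests were made only within a cell line.

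The targeted genes were examined first. *TRA2A* was at 9.56% of control in TRA2A KD of A549 and 6.54% in NCI-H23, and *TRA2B* was at 9.68% and 10.6% in the TRA2B KD groups. In the DKD, *TRA2A* and *TRA2B* were at 13.9% and 16.3% in A549 and at 20.5% and 25.2% in NCI-H23. The knockouts left more RNA: *TRA2A* was at 62.9% and 33.2% in TRA2A KO of LN229 and LN319, and *TRA2B* at 66.0% and 35.1% in TRA2B KO. With *TRA2B* targeted alone, *TRA2A* was at 130% of control in A549, 149% in NCI-H23 and 155% in LN229. In LN319 TRA2B KO it was instead at 84.6%, a log2 fold change of −0.35 (limma adjusted p = 0.00377, and 0.0781 with quantile normalization). In TRA2B-OE Control KO cells *TRA2B* was at 374% of Luc Control KO in LN229 and 873% in LN319. In LN229 with TRA2B-OE the *TRA2A* guide gave a log2 fold change of *TRA2A* RNA of only −0.23 against TRA2B-OE Control KO (adjusted p = 0.068). That control was itself at 73.4% of Luc Control KO, and the libraries with the guide were at 64.0%, beside 62.9% in Luc TRA2A KO. Against their own control the RNA of the target thus does not show the knockout in these 3 libraries, and the RNA level alone does not tell whether it failed. The keratins *KRT8* and *KRT18* were at 488 to 3072 TPM in the lung lines, but *KRT7* was at 3594 to 3807 TPM in A549 and only 2.10 to 3.95 TPM in NCI-H23, *EPCAM* was at most 2.99 TPM and the lung lineage genes *NKX2-1* and *SFTPB* were below 1 TPM in both. *NKX2-1* was higher in the glioma line LN319, at 5.81 to 16.6 TPM. *SOX2* was at 25.2 to 482 TPM in the glioma lines, *GFAP* was below 4 TPM in both, and *OLIG2* and *S100B* were nearly absent from LN319.

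1 library stood apart, replicate 3 of A549 Control KD, whose median correlation with the other libraries of its line was 0.837, the lowest of all. Its licensing genes lay 0.37 below the control mean on the log2 scale, a mean that includes this library. Its *POLE2* was at 7.63 TPM against 30.4 and 31.3 in the other A549 controls. Before scaling, the 48 genes took a larger share of its TPM (0.302%) than in the other A549 controls (0.276% and 0.284%). The scaling factor of this library was the largest of all (1.17). Also given without it are the number of genes that fell in the A549 DKD, the counts and medians of the A549 single knockdowns, and the DKD values of *POLE2*, *ORC4*, *POLD4* and *RRM2B*. The DKD median, the values of the role groups and most other A549 fold changes are given only with it. In LN229 the share of TPM taken by the 48 genes was lowest in replicate 1 of every group. The gap was widest in Luc Control KO (0.280% against 0.440% and 0.439%) and TRA2B-OE Control KO (0.285% against 0.431% and 0.432%), and smaller in Luc TRA2A KO (0.386% against 0.452% and 0.450%) and TRA2B-OE TRA2A KO (0.371% against 0.414% and 0.412%).

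To show where an E2F word lies in those replication promoters that hold one, the 100 bases before the transcription start are printed for 1 gene of each role. Each was chosen among the minority of the genes whose 250-base upstream window holds an E2F word, here the letters TTTCCCGC, TTTGGCGC, TTTCGCGC or TTTGCCGC on either strand, which may overlap each other. Capitals mark the words, which read GCGGGAAA where TTTCCCGC lies on the other strand. Sequences are from RefSeq on GRCh38.p14.
CDT1, licensing, chr16:88803689-88803788, plus strand: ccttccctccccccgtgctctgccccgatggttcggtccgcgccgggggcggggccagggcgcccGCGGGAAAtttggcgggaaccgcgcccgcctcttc
MCM6, helicase, chr2:135876444-135876543, minus strand: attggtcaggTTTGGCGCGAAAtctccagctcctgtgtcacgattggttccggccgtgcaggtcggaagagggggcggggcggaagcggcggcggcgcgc
PCNA, fork, chr20:5126623-5126722, minus strand: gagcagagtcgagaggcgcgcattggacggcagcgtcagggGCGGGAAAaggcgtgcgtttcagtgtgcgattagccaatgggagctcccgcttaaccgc
TYMS, nucleotide supply, chr18:657553-657652, plus strand: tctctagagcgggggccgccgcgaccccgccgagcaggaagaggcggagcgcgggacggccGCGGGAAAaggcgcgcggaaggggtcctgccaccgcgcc

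A promoter was found for 42 of the 48 genes; *MCM4*, *MCM5*, *GINS4*, *POLD3*, *RPA2* and *RPA3* had none in the table used. An E2F word occurred in 13 of the 42 (31.0%), against 761 of all 27305 promoters (2.79%) and 1 of 27 promoters of other replication genes (3.70%). In *MCM6* 2 words overlap, at 90 and 86 bases before the start, and the word lies 35 bases before the start in *CDT1*, 59 in *PCNA* and 39 in *TYMS*. The CCAAT box (CCAAT, either strand) occurred in 23 of the 42 (54.8%), in 14 of the 27 promoters of other replication genes (51.9%) and in 33.0% of all promoters. The letters TTTGAA, the core of the cell cycle homology region, occurred in 1 of the 42 (2.38%), in 1 of the 27 (3.70%) and in 13.6% of all promoters. These are matches of letters and not sites shown to be bound.

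In the control groups (Control KD and Luc Control KO) the replication genes spanned a wide range of levels. In A549 Control KD the lowest was *CDC7* at 6.86 ± 1.05 TPM (SD, n = 3), the highest *PCNA* at 281 ± 49.1 TPM, and the median gene was at 33.1 TPM. In NCI-H23 the range ran from *GINS3* to *MCM7* at 344 TPM, in LN229 from *POLA1* to *PCNA* at 351 TPM, and in LN319 from *ORC5* at 11.5 TPM to *TK1* at 266 TPM. Together the 48 genes took 0.287% ± 0.0131 of TPM in A549 Control KD and 0.155% ± 0.00701 in the DKD (SD, n = 3 each). In NCI-H23 they took 0.362% ± 0.0294 and 0.242% ± 0.0151. The libraries of control and DKD did not overlap in either line. In bulk RNA, fewer cells in S phase and less of these RNAs per cell cannot be told apart.

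**Figure D1:**
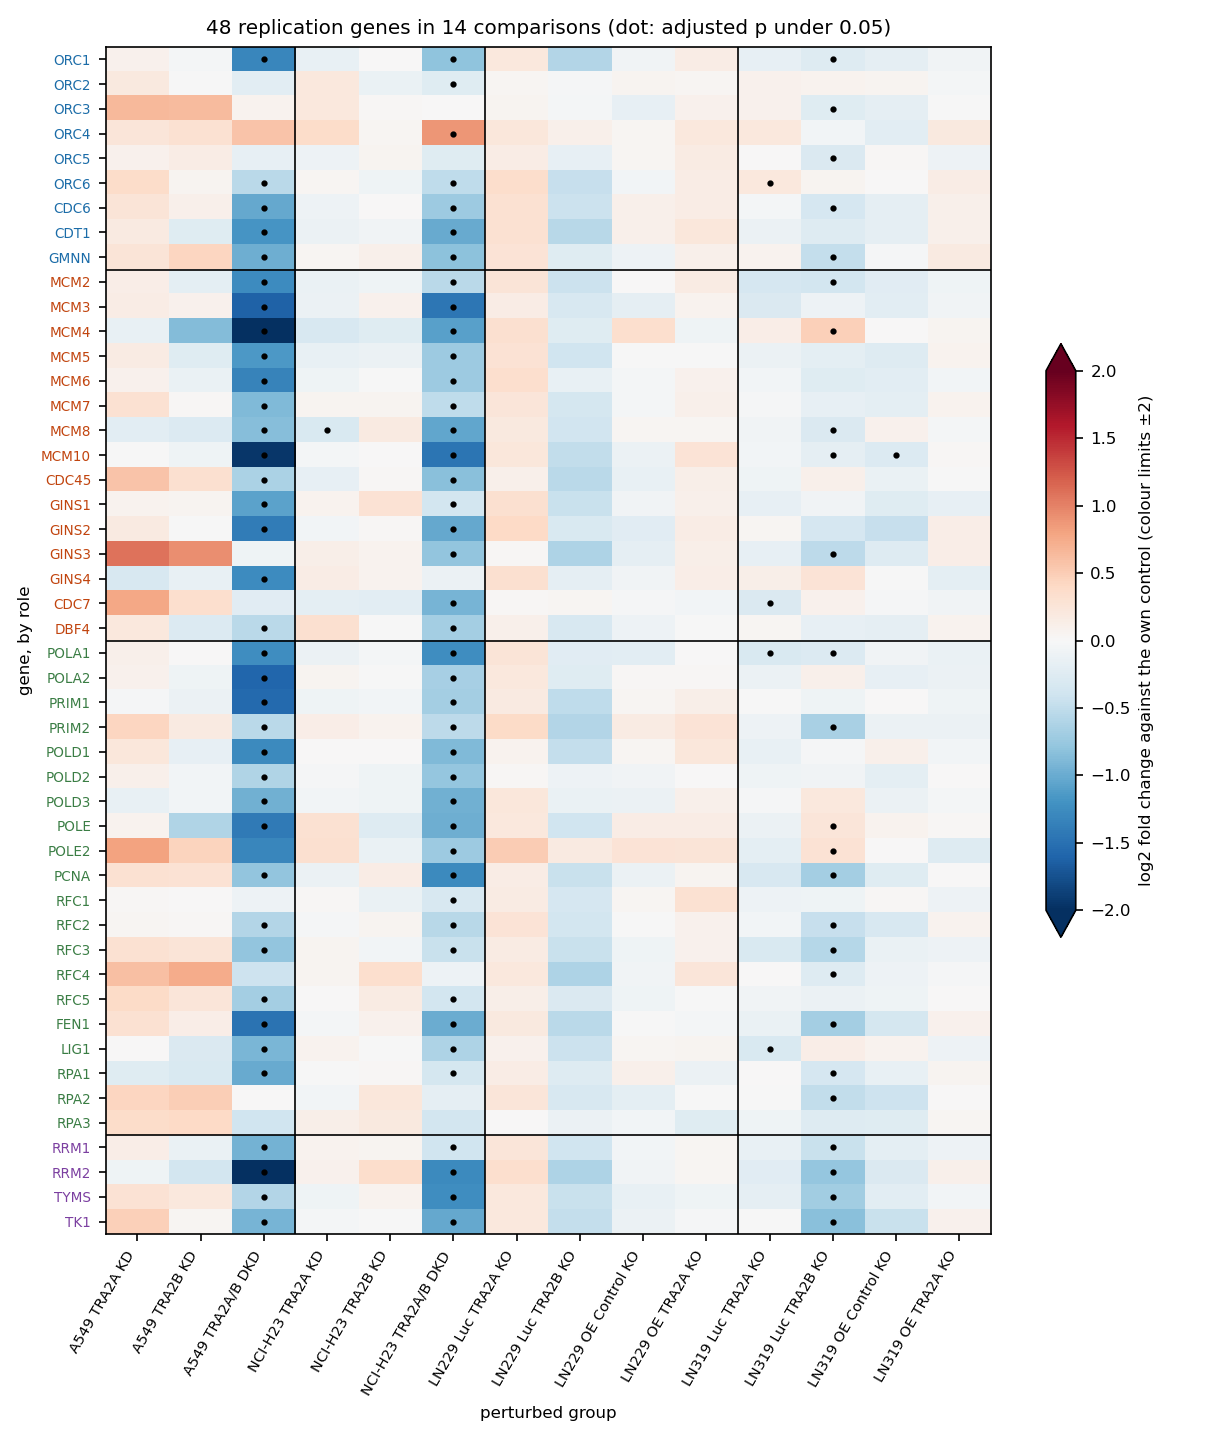
The log2 fold change (scaled TPM + 0.1) of the 48 genes, in rows ordered by role, in 14 comparisons, in columns, each against the control of its own line and background (colour limits −2 and 2; a dot marks adjusted p under 0.05). Dots fill the A549 and NCI-H23 TRA2A/B DKD columns, mostly blue, and part of the LN319 TRA2B KO column, while the single knockdowns hold 1 dot and the LN229 columns none.

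Knockdown of both paralogs lowered most of the replication machinery in both lung lines. In A549, 37 of the 48 genes fell and none rose, where 15.9% of all genes tested fell and 14.6% rose. The median log2 fold change was −0.94, and 20 of the 48 fell by more than 1 on the log2 scale, against 5.14% of all genes. Without Control KD replicate 3 the number of the 48 that fell was 42. The share of all genes that fell in that fit is not given here. In NCI-H23, 41 fell and 1 rose, where 23.2% of all genes fell and 20% rose. There the median was −0.72, and 11 fell by more than 1, against 5.74% of all genes. The median of all genes tested was 0.04 in A549 and 0.02 in NCI-H23.

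The groups differed in how many members fell and how far. Helicase genes fell in 13 of 15 cases in A549 (median −1.15) and 14 of 15 in NCI-H23 (−0.79), and polymerase and fork genes in 15 of 20 (−0.85) and 17 of 20 (−0.64). All 4 nucleotide supply genes fell in both lines, with medians of −0.94 and −1.13. Licensing was the most mixed group, with 5 of 9 falling in A549 (−0.54), and 6 falling and 1 rising in NCI-H23 (−0.51). These groups were not tested against each other. In both lines all 3 DKD libraries gave the same order of group means: licensing was nearest to control (−0.56 to −0.50 in A549 and −0.44 to −0.36 in NCI-H23) and nucleotide supply farthest (−1.43 to −1.21 and −1.01 to −0.95), with fork genes (−0.94 to −0.78 and −0.68 to −0.62) and helicase genes (−1.15 to −1.03 and −0.83 to −0.80) between. In A549 the place of the nucleotide group rests on *RRM2* (−2.86), since its other 3 genes were at −0.94, −0.93 and −0.58 and its median was nearer to control than that of the helicase genes.

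**Figure D2:**
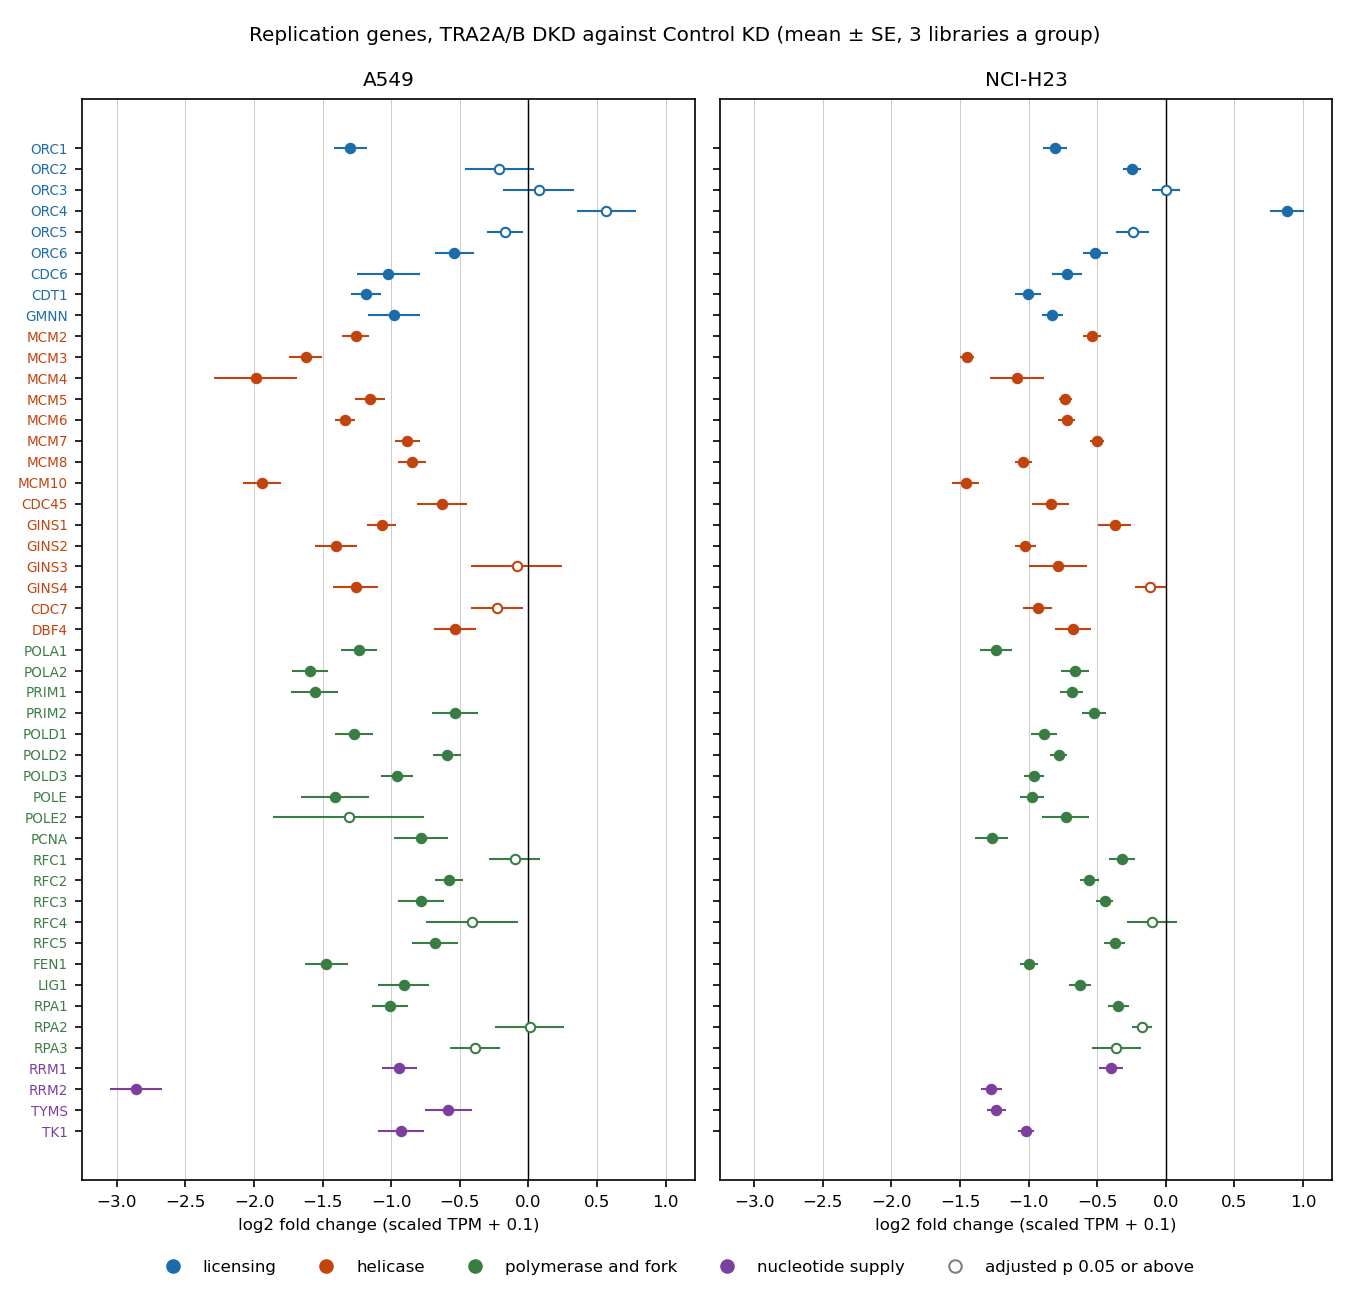
Log2 fold change (scaled TPM + 0.1) of each of the 48 genes in TRA2A/B DKD against Control KD, in A549 (left) and NCI-H23 (right), coloured by role. Bars give the SE from the limma fit over all libraries of the line, with 3 libraries a group. Open symbols have adjusted p of 0.05 or above. Helicase, fork and nucleotide genes lie mostly left of 0, *RRM2* reaches −2.86 in A549, and *ORC4* lies right of 0 in both lines.

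Among licensing genes, *ORC1*, the largest subunit of the origin recognition complex, was at 12.2, 12.8 and 13.4 TPM in A549 Control KD and at 6.14, 4.91 and 5.21 TPM in the DKD. In NCI-H23 it was at 27.1, 29.4 and 28.5 TPM and at 16.5, 19.2 and 18.2 TPM. Every DKD library was below every control library, with log2 fold changes of −1.30 ± 0.12 (adjusted p = 2.77e-05) and −0.81 ± 0.09 (adjusted p = 3.29e-05). *CDT1*, which brings the MCM ring to the origin, went from 29.4, 32.1 and 33.1 TPM to 13.9, 16.1 and 13.5 TPM in A549 (−1.18 ± 0.11, adjusted p = 2.04e-05), and from 44.9, 48.8 and 51.7 TPM to 23.5, 29.7 and 27.5 TPM in NCI-H23 (−1.01 ± 0.09, adjusted p = 1.22e-05). *CDC6*, its partner in loading, fell by 1.02 and 0.72 on the log2 scale, and geminin (*GMNN*), the inhibitor of CDT1, fell by 0.98 and 0.83, so the loaders and their inhibitor moved in the same direction.

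*ORC4* moved against its group. Its RNA was at 21.1, 19.1 and 24.1 TPM in NCI-H23 Control KD and at 43.4, 43.5 and 45 TPM in the DKD, a rise of 0.89 ± 0.12 (adjusted p = 0.000194). In A549 the controls were at 23.6, 33.2 and 21.8 TPM and the DKD at 36, 37.9 and 47.3 TPM, also without overlap. Of all 16405 genes tested there, 3909 were likewise higher without overlap by unscaled TPM. The log2 fold change of *ORC4*, 0.57 ± 0.21, did not pass the test (adjusted p = 0.0639). It passed with TPM as deposited (0.64, adjusted p = 0.0225), with quantile normalization (0.64, adjusted p = 0.0408), with a filter of 5 TPM (0.60, adjusted p = 0.039) and without Control KD replicate 2 (0.78, adjusted p = 0.0143), and was 0.37 (adjusted p = 0.15) without replicate 3. *ORC4* lies at chr2:147930396-148021604 (hg38, minus strand) and shares exonic bases with the antisense genes *ACVR2A* and *MBD5*. The remaining subunits had smaller fold changes than *ORC1*: *ORC6* fell in both lines (−0.54 and −0.51), *ORC2* was at −0.21 in A549 and fell in NCI-H23 (−0.25), and *ORC3* and *ORC5* passed the test in neither. The calls of *ORC6* in A549 (without DKD replicate 2, −0.43, adjusted p = 0.0656) and *ORC2* in NCI-H23 (without DKD replicate 1, −0.19, adjusted p = 0.0598) were each lost without 1 library.

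The 6 subunits of the MCM ring fell together in both lines, by a median of 1.30 on the log2 scale in A549 and 0.73 in NCI-H23. *MCM3* was at 69.7, 70.3 and 62.9 TPM in A549 Control KD against 21.3, 23.8 and 23.8 TPM in the DKD (−1.62 ± 0.12, adjusted p = 5.22e-06). In NCI-H23 it was at 127, 153 and 143 TPM against 55.6, 56 and 60.8 TPM (−1.45 ± 0.05, adjusted p = 1.84e-08). *MCM10*, which helps the loaded helicase to start, fell from 24.4, 24.9 and 32.7 TPM to 9.03, 6.57 and 6.57 TPM in A549 (−1.94 ± 0.14, adjusted p = 4.53e-06) and from 41.2, 44 and 40.6 TPM to 17.3, 15 and 18.6 TPM in NCI-H23 (−1.46 ± 0.10, adjusted p = 1.23e-06). Neither gene overlapped between control and DKD. *MCM4* varied more between libraries, at 14.8, 31.8 and 13 TPM in the A549 DKD against 70.7, 55.6 and 84.9 TPM in Control KD (−1.99 ± 0.30, adjusted p = 0.000646), and fell by 1.08 ± 0.20 in NCI-H23.

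Subunits of the other helicase parts did not all follow. *GINS2* fell in both lines (−1.40 ± 0.15 and −1.02 ± 0.07), as did *GINS1* (−1.07 and −0.37). *GINS4* was at 53.2, 52 and 92.7 TPM in A549 controls and 24.8, 29.2 and 29.6 TPM in the DKD, a fall of 1.26 ± 0.17, but in NCI-H23 it was at 52.9, 71.3 and 71.4 TPM against 65.1, 62.7 and 72.2 TPM (−0.11, adjusted p = 0.464). For *GINS3* the lines were the other way round, with −0.09 in A549 (adjusted p = 0.872) and −0.79 ± 0.21 in NCI-H23 (adjusted p = 0.0121), where 1 DKD library at 12.1 TPM lay among controls of 11.3 to 14.4 TPM. The kinase *CDC7* was at 26.2, 25.5 and 21.6 TPM in NCI-H23 controls and 13.9, 13.2 and 15.5 TPM in the DKD (−0.93 ± 0.11, adjusted p = 5.2e-05), and did not pass in A549 (−0.23, adjusted p = 0.395). Whether these differences between the lines exceed their error was not tested. *CDC45* fell in both (−0.63 and −0.84), as did *DBF4* (−0.53 and −0.68). The A549 calls of *CDC45* and *DBF4* were lost in 4 and 2 of the 6 fits that each left out 1 library (highest adjusted p = 0.0853, without DKD replicate 2, and 0.0869, without the same library), and the NCI-H23 calls of *GINS1* and *GINS3* in 4 and 2 (highest adjusted p = 0.118, without DKD replicate 1, and 0.0587, without DKD replicate 3).

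At the fork, all 4 subunits of polymerase alpha with primase fell in both lines, by medians of 1.40 and 0.67 on the log2 scale. *PRIM1*, the catalytic primase subunit, was at 17, 21 and 24.1 TPM in A549 Control KD and 6.19, 7.12 and 8.54 TPM in the DKD (−1.56 ± 0.17, adjusted p = 6.99e-05). In NCI-H23 its values were 38.2, 42.8 and 45.4 TPM and 27.9, 30.6 and 28.9 TPM (−0.69 ± 0.08, adjusted p = 8.13e-05). The primase gene shares exonic bases with *NACA* on its own strand and *HSD17B6* on the other. *POLA2* fell most among fork genes of A549 (−1.59 ± 0.13), and *POLA1*, the catalytic subunit, fell by 1.24 in both lines. *PRIM2* fell by 0.53 in A549, a call lost in 5 of 6 fits without 1 library (adjusted p up to 0.122, without DKD replicate 1).

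The clamp *PCNA* had controls at 295, 321 and 226 TPM in A549 and DKD libraries at 155, 154 and 204 TPM, a fall of 0.78 ± 0.20 (adjusted p = 0.013). In NCI-H23 it was at 164, 215 and 213 TPM and at 99.9, 77.3 and 95.7 TPM, a fall of 1.27 ± 0.12 (adjusted p = 1.33e-05), the largest among fork genes there. The groups did not overlap in either line, but in A549 the call was lost without DKD replicate 1 or 2 (−0.71 and −0.72, adjusted p = 0.0514 and 0.0503). *FEN1*, the flap nuclease, fell by 1.47 ± 0.16 and 1.00 ± 0.07, the ligase *LIG1* by 0.91 and 0.62, and the 3 polymerase delta genes by 0.59 to 1.27 and by 0.78 to 0.96. *POLE*, the catalytic subunit of polymerase epsilon, fell in both (−1.41 ± 0.25 and −0.98 ± 0.09). Its partner *POLE2* was at −1.31 ± 0.55 in A549 (adjusted p = 0.0965), with values from 4.85 to 11.5 TPM in the DKD beside the control library at 7.63 TPM. Without that library, replicate 3 of Control KD, *POLE2* fell by 2.06 on the log2 scale (adjusted p = 0.00109).

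Among the fork proteins, the clamp loader and the single-strand binding proteins had the medians nearest to control. Of the 5 RFC genes 3 fell in A549 and 4 in NCI-H23, with medians of −0.58 and −0.37. The 3 RPA genes had medians of −0.39 and −0.35. Of these only *RPA1* fell in either line (−1.01 ± 0.13 and −0.35 ± 0.08). *RPA2* was at 0.01 and −0.17, and *RPA3* at −0.39 and −0.36, none of which passed the test (adjusted p of 0.071 to 0.984).

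*RRM2*, the small subunit of ribonucleotide reductase whose level sets enzyme activity in S phase, changed most of all 48 genes in A549. It was at 127, 132 and 210 TPM in Control KD and 23.4, 25.6 and 17.6 TPM in the DKD (−2.86 ± 0.19, adjusted p = 2.66e-06). In NCI-H23 it was at 214, 240 and 214 TPM and at 100, 91.6 and 117 TPM (−1.27 ± 0.08, adjusted p = 6.01e-07). The large subunit *RRM1* fell less, by 0.94 ± 0.13 and 0.40 ± 0.09. *RRM2* has 3 pseudogene rows in the tables, and reads that its copies share could be divided between them. For *TYMS* the size differed the other way, with 138, 151 and 105 TPM against 84.1, 91.5 and 97.7 TPM in A549 (−0.58 ± 0.17, adjusted p = 0.024) and 248, 299 and 288 TPM against 134, 119 and 142 TPM in NCI-H23 (−1.23 ± 0.07, adjusted p = 2.68e-07). The A549 call of *TYMS* was lost in 4 of 6 fits without 1 library, with values down to −0.45 (without Control KD replicate 2) and adjusted p up to 0.0855 (without DKD replicate 1). *TYMS* overlaps the antisense genes *ENOSF1* and *TYMSOS*. *TK1* fell by 0.93 ± 0.17 and 1.02 ± 0.06.

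**Figure D3:**
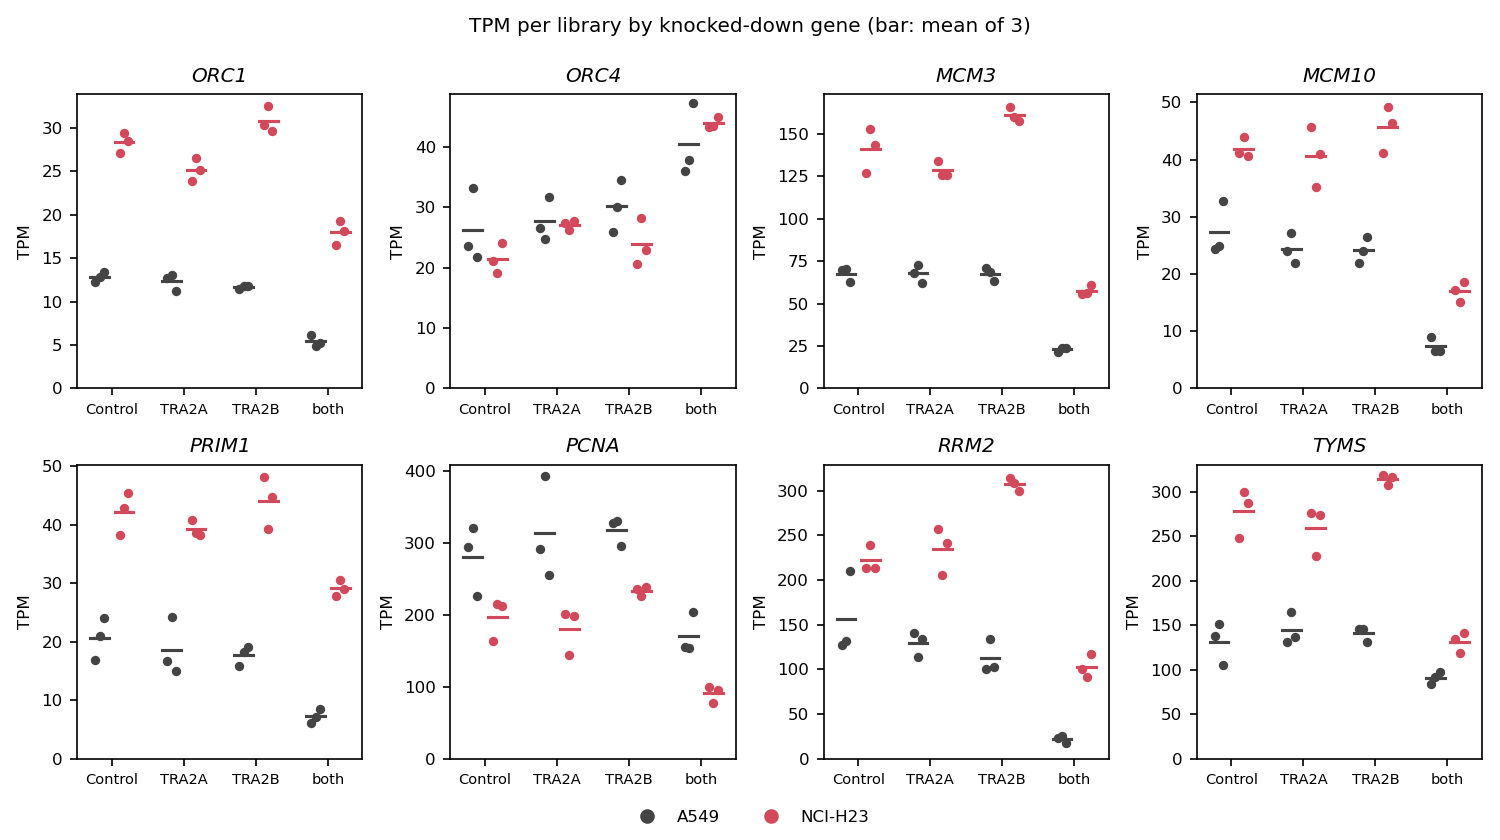
TPM in each library (points; bars are means of 3) of 8 replication genes in Control KD, in either single KD and in TRA2A/B DKD ("both") of A549 (dark) and NCI-H23 (red), on linear axes from 0. The single knockdowns lie nearer to the controls, although *RRM2* in NCI-H23 TRA2B KD lies above its controls; the DKD libraries lie below the controls for *ORC1*, *MCM3*, *MCM10*, *PRIM1*, *PCNA*, *RRM2* and *TYMS*, and above them for *ORC4*.

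The A549 and NCI-H23 DKD comparisons share no library. Of the genes that fell, 36 were the same, which is 97.3% of the 37 in A549 and 87.8% of the 41 in NCI-H23. These shares stand beside 85.4% of all 48 genes that fell in NCI-H23 and 77.1% that fell in A549. Whether the overlap exceeds what these shares give was not tested. The 5 genes called in neither line were *ORC3*, *ORC5*, *RFC4*, *RPA2* and *RPA3*. The absolute fold change was larger in A549 for 32 of the 48 genes. Genes with an E2F word in the promoter fell in 12 of 13 cases in both lines, with medians of −1.18 and −0.98. Those without one fell in 21 of 29 cases in A549 (median −0.85) and 26 of 29 in NCI-H23 (−0.69).

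In the single knockdowns at most 1 of the 48 genes passed the test. In A549 no gene passed the limma test in TRA2A KD (0.165% of all genes fell and 0.0488% rose) or in TRA2B KD (0.061% and 0.274%). At an unadjusted p below 0.05 there were 9 in TRA2A KD, all higher, and 9 in TRA2B KD, 5 lower and 4 higher. Of all 16405 genes tested, 1852 were below that p in TRA2A KD (906 lower, 946 higher). In TRA2B KD 2225 were (989 lower, 1236 higher). The median log2 fold changes of the 48 genes were 0.18 and 0.01, with 8 and 22 of the 48 values negative. Without Control KD replicate 3 they were 0.07 and −0.05, with 8 and 30 negative, and again no gene passed. In NCI-H23 the helicase-related gene *MCM8* fell in TRA2A KD, from 24.2, 27.7 and 28 TPM to 22, 21.6 and 20.4 TPM (−0.30 ± 0.06, adjusted p = 0.0453). It was the 1 gene of 48 that passed in TRA2A KD, where 0.601% of all genes fell and 0.374% rose, and it passed in none of the fits that left out 1 library. No gene passed in TRA2B KD of NCI-H23 (0.0368% and 0.16% of all genes), where 6 had an unadjusted p below 0.05, 2 lower and 4 higher. Of all 16293 genes tested, 1729 had an unadjusted p below 0.05 (788 lower, 941 higher). Of the 48, *RRM2* had the lowest p, at 314, 308 and 299.6 TPM against 214, 240 and 214 TPM in control (0.35 ± 0.08, adjusted p = 0.163). Mitochondrially encoded genes took 17.8% to 19.3% of TPM in these libraries and 23.1% to 31.9% in their controls; their part in the TPM values was not tested. The single knockdowns and the DKD of a line share their control libraries.

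For most of the genes the fall with both paralogs down was larger than the sum of the single responses. This was tested as DKD minus both single knockdowns plus control. In A549, 37 of 48 genes were lower in the DKD than the sum (8.7% of all genes were), and none was higher (6%), with a median of −1.20. In NCI-H23, 40 were lower (12.8% of all genes) and none higher (8.23%), with a median of −0.67. For *RRM2* the single log2 fold changes were −0.09 and −0.36 in A549, and the DKD lay 2.41 ± 0.27 below their sum (adjusted p = 0.00032). In NCI-H23 the singles were 0.09 and 0.35 and the DKD lay 1.71 ± 0.11 below (adjusted p = 6.6e-06). *MCM3* lay 1.86 and 1.41 below the sum, and *PCNA* 1.36 and 1.30 below. Some genes that fell in the A549 DKD did not pass this test. *MCM4* was at −0.87 in TRA2B KD, and its difference from the sum was −0.97 ± 0.43 (adjusted p = 0.16). *ORC4*, which rose in the NCI-H23 DKD, did not differ from the sum in the test (0.02 in A549 and 0.48 ± 0.17 in NCI-H23, adjusted p = 0.98 and 0.072). Mitochondrial genes took 17.6% to 23.4% of TPM in the A549 DKD libraries and 18.0% to 21.6% in their controls, and 19.3% to 28.3% against 23.1% to 31.9% in NCI-H23.

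Other genes of replication outside the 48, 35 in number, were read in the same fits. In the DKD, 19 of them fell and 2 rose in A549 (15.9% and 14.6% of all genes), and 25 fell and 3 rose in NCI-H23 (23.2% and 20%). *CLSPN* (claspin, a fork checkpoint mediator) had the largest fall in both, from 14.1, 17.7 and 28.6 TPM to 3.46, 3.23 and 3.76 TPM in A549 (−2.50 ± 0.16) and from 39.4, 36 and 34.7 TPM to 12.2, 12.3 and 13.6 TPM in NCI-H23 (−1.68 ± 0.13). *RNASEH2B*, a subunit of ribonuclease H2 (−1.99 and −1.23), and *DSCC1*, a subunit of an alternative clamp loader (−1.80 and −1.41), also fell in both. The genes that rose included *RRM2B*, the p53-inducible small subunit of ribonucleotide reductase. It was at 30.2, 32.6 and 67.6 TPM in A549 controls and 76.2, 73.3 and 72.1 TPM in the DKD (0.79 ± 0.19, adjusted p = 0.00877), and at 21.1, 22.7 and 27.6 TPM against 68.4, 60.5 and 68.2 TPM in NCI-H23 (1.31 ± 0.11, adjusted p = 4.83e-06). Without Control KD replicate 3 the A549 value of *RRM2B* was 1.08 (limma adjusted p = 7.41e-06). *RRM2B* thus rose where *RRM2* fell. *POLD4*, the smallest subunit of polymerase delta, also rose (0.72 and 1.03) while its 3 partners fell, and *MCM9* rose in NCI-H23 (0.93 ± 0.14). The A549 call of *POLD4* was lost without any 1 of the 3 DKD libraries (0.66 to 0.79, adjusted p up to 0.117, without replicate 3), and the value was 0.38 without Control KD replicate 3.

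In LN319, TRA2B KO changed 25 of the 48 genes, 22 lower and 3 higher, where 24.2% of all genes tested fell and 18.5% rose. *TRA2A* RNA was also lower in these libraries, at 84.6% of control. None of the 48 moved by more than 1 on the log2 scale, and their median was −0.24. The split depended on the scaling: 15 fell and 9 rose with TPM as deposited, 17 and 10 with quantile normalization, 19 and 8 with a filter of 5 TPM, and 22 and 0 with no filter. Mitochondrial genes took 18.3% to 20.6% of TPM in these libraries and 12.1% to 12.8% in their controls; the part of this in the result was not tested.

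The 4 nucleotide supply genes all fell, with the lowest median of the 4 groups (−0.74). *TK1*, which salvages thymidine, was at 262, 247 and 289 TPM in Luc Control KO and 152, 161 and 169 TPM in TRA2B KO (−0.84 ± 0.16, adjusted p = 0.000978). *RRM2* was at 137, 128 and 143 TPM against 70.3, 87.3 and 103 TPM (−0.77 ± 0.14, adjusted p = 0.000967), and *TYMS* at 117, 113 and 127 TPM against 76, 82.4 and 79.1 TPM (−0.70 ± 0.11, adjusted p = 0.000337). None of these overlapped, and *RRM1* fell by 0.44 ± 0.10. Per library, the nucleotide group lay 0.77, 0.66 and 0.63 below the control mean on the log2 scale, while the other groups lay 0.09 to 0.22 below.

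Among the fork genes of LN319, *PCNA* was at 209, 190 and 219 TPM and at 135, 142 and 139 TPM (−0.68 ± 0.13, adjusted p = 0.00139). *FEN1* fell from 97.6, 96.6 and 111 TPM to 63.7, 68.9 and 71.7 TPM (−0.69 ± 0.10), and *PRIM2*, the large primase subunit, from 54.4, 52.7 and 55 TPM to 36.8, 37.5 and 36.7 TPM (−0.65 ± 0.08, adjusted p = 6.94e-05). In all, 9 of 20 fork genes fell and 2 rose, and none of the 3 polymerase delta genes passed the test. Of the 9 licensing genes 5 fell, with *GMNN* first (−0.47 ± 0.06) and *ORC1* among them (−0.26 ± 0.07). Of the 15 helicase genes 4 fell (*GINS3*, *MCM2*, *MCM8* and *MCM10*, −0.52 to −0.18) and 1 rose, where 24.2% of all genes fell and 18.5% rose. Without Luc Control KO replicate 3 the calls of *MCM2*, *MCM8*, *MCM10*, *CDC6*, *ORC3* and *POLA1* were lost and 18 genes were called in all.

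The genes that rose were *MCM4* and both polymerase epsilon genes. *MCM4* went from 120, 88.1 and 94.2 TPM to 168, 135 and 150 TPM (0.48 ± 0.13, adjusted p = 0.0115). *POLE2* went from 72.7, 84.9 and 75 TPM to 92.3, 97.1 and 118 TPM (0.29 ± 0.10, adjusted p = 0.0357), and *POLE* from 105, 123 and 103 TPM to 141, 150 and 133 TPM (0.25 ± 0.09, adjusted p = 0.0487). None of the 3 overlapped its control. Of the 6 fits that each left out 1 library, the call was lost in 2 for *MCM4* (0.37 without Luc Control KO replicate 2 and 0.39 without TRA2B KO replicate 1), in 4 for *POLE2* (down to 0.18, without TRA2B KO replicate 3, adjusted p = 0.199) and in 5 for *POLE* (adjusted p up to 0.17, without TRA2B KO replicate 2). The MCM ring did not move as 1 unit here: *MCM2* fell (−0.37 ± 0.11), *MCM4* rose, and *MCM3*, *MCM5*, *MCM6* and *MCM7* did not pass the test (−0.24 to −0.11).

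Side by side with the lung lines, 17 of the genes that fell in LN319 TRA2B KO also fell in the A549 DKD (77.3% of 22, 45.9% of 37) and 18 in the NCI-H23 DKD (81.8% of 22, 43.9% of 41). These shares of the 22 are near those of all 48 genes, of which 77.1% fell in the A549 DKD and 85.4% in the NCI-H23 DKD. *MCM4* and *POLE* fell in both DKDs and rose in LN319. Genes with an E2F word fell in 5 of 13 cases in LN319 TRA2B KO and those without in 16 of 29. Among the 35 other replication genes 13 fell and 7 rose, where 24.2% of all genes fell and 18.5% rose. Lowest of the 35 were *POLE4* (−0.75 ± 0.12), a small subunit of polymerase epsilon, and *LRWD1*, an ORC-binding protein (−0.55 ± 0.06). *SAMHD1*, a dNTP hydrolase, was at 0.72 ± 0.24, a call lost in 4 of 6 fits without 1 library (adjusted p up to 0.118, without TRA2B KO replicate 1).

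**Figure D4:**
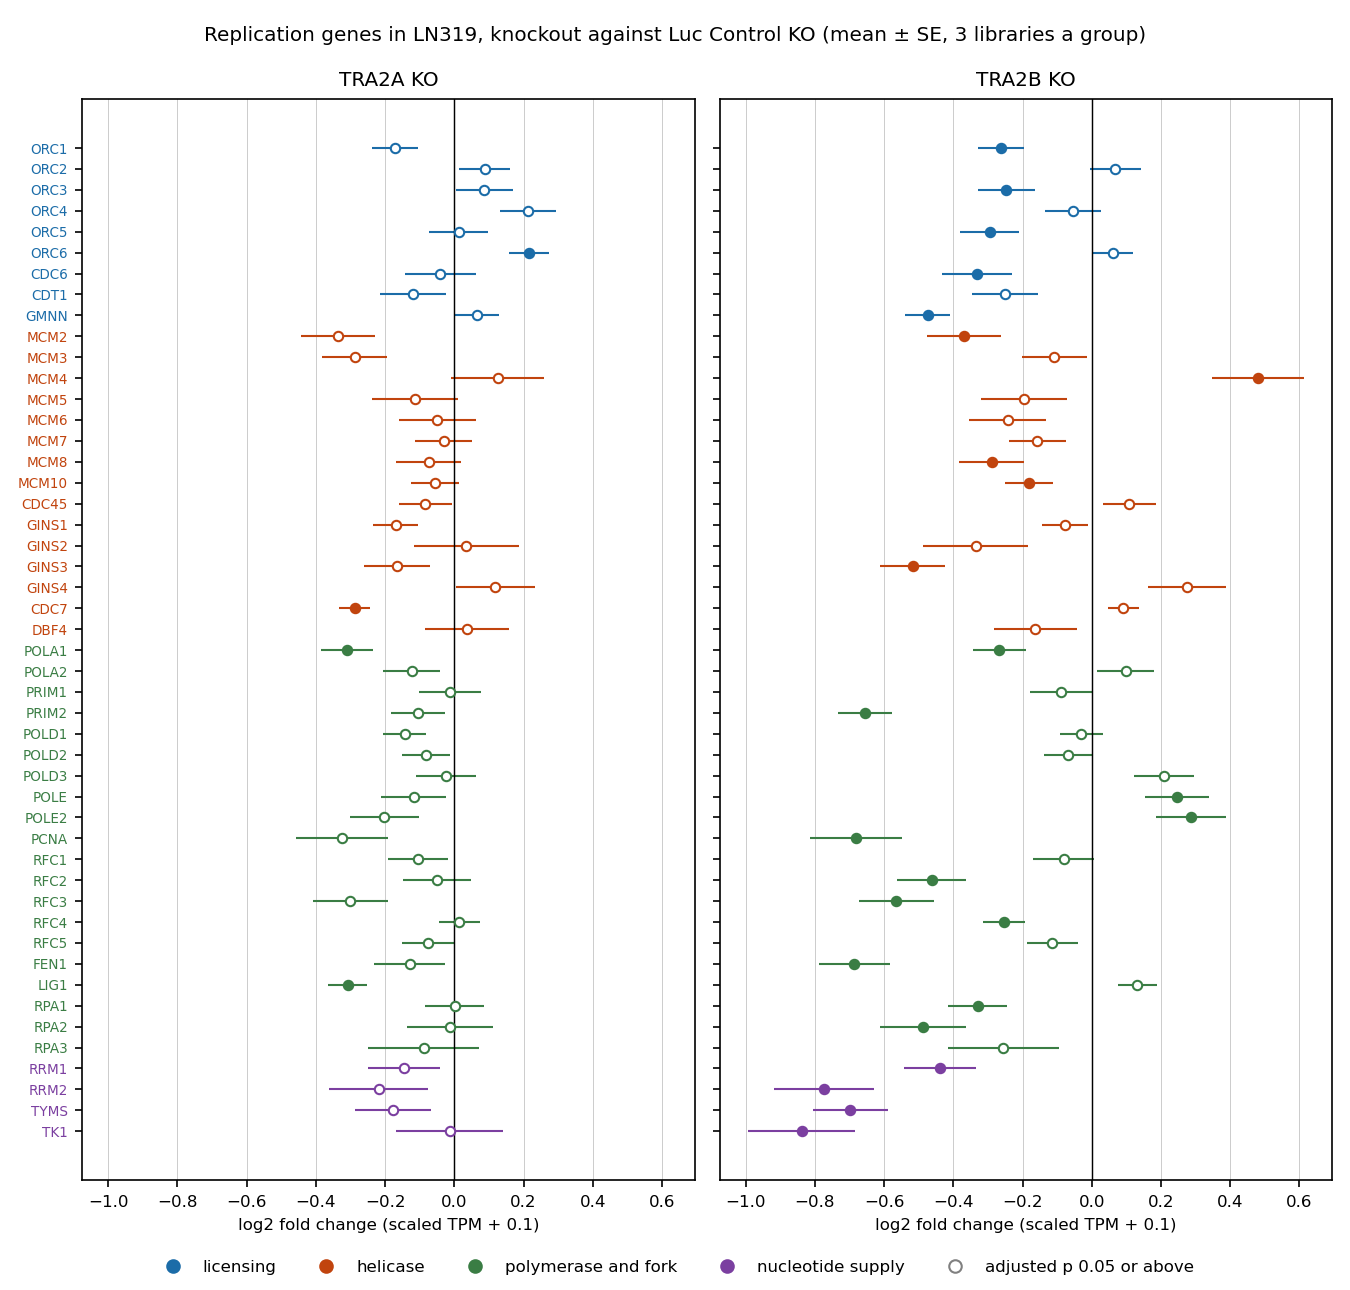
Log2 fold change (scaled TPM + 0.1) of the 48 genes in LN319 TRA2A KO (left) and TRA2B KO (right) against the same Luc Control KO libraries. Bars give the SE from the limma fit over all libraries of the line, with 3 libraries a group. Open symbols have adjusted p of 0.05 or above. The nucleotide genes lie between −0.84 and −0.44 in TRA2B KO and between −0.22 and −0.01 in TRA2A KO, where 4 symbols are filled.

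TRA2A KO in LN319, the line described as dependent on TRA2A, left most of these genes near control. 3 fell and 1 rose (7.25% and 7% of all genes tested), and the median was −0.08. *CDC7* was at 48.7, 48.5 and 49.5 TPM in Luc Control KO and 40.5, 37.8 and 38.6 TPM in TRA2A KO (−0.29 ± 0.04, adjusted p = 0.0014). *LIG1* fell from 104, 113 and 110 TPM to 84.4, 89.9 and 81.9 TPM (−0.31 ± 0.05, adjusted p = 0.0039), and *POLA1* from 16.1, 16.4 and 17.9 TPM to 12.7, 12.6 and 14.2 TPM (−0.31 ± 0.08, adjusted p = 0.017). *ORC6* rose from 48.2, 48.1 and 50.9 TPM to 55.9, 54.2 and 56 TPM (0.22 ± 0.06, adjusted p = 0.027). None of the 4 overlapped its control. The calls of *ORC6* and *POLA1* were lost in 4 and 2 of 6 fits without 1 library (adjusted p up to 0.0951, without Luc Control KO replicate 2, and 0.0657, without TRA2A KO replicate 2). With TPM as deposited 9 fell and none rose. In the TRA2B KO of the same line *CDC7* was at 55.5, 56.6 and 56.6 TPM and *LIG1* at 125, 134 and 127 TPM, so both lay on the other side of the shared control without passing the test (adjusted p = 0.12 and 0.0822).

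With TRA2B-OE in LN319, the *TRA2A* guide gave a log2 fold change of *TRA2A* RNA of −0.86, beside −1.55 in Luc TRA2A KO. *TRA2A* was then at 45.0% of Luc Control KO, beside 85.2% in TRA2B-OE Control KO and 33.2% in Luc TRA2A KO. The part of this in the counts below was not tested. None of the 48 genes passed the limma test with the guide and TRA2B-OE (1.27% of all genes fell and 1.54% rose). At an unadjusted p below 0.05, 2 of the 48 were lower and 3 higher. The difference between the TRA2A KO response with TRA2B-OE and with Luc passed for none of them (0.0207% of all genes passed, all higher; 3 of the 48 had an unadjusted p below 0.05, all higher, and the lowest adjusted p was 0.436). For *CDC7* the levels were 53.3, 50.0 and 50.5 TPM in TRA2B-OE Control KO and 46.4, 47.8 and 45.8 TPM in TRA2B-OE TRA2A KO. Overexpression by itself lowered 1 gene, *MCM10*, from 24.2, 23.5 and 24 TPM to 23.2, 20.5 and 19.8 TPM (−0.27 ± 0.07, adjusted p = 0.048), where 2.16% of all genes fell and 2.14% rose. 14 of the 48 had an unadjusted p below 0.05, all lower. How many of all genes were below that p in these LN319 comparisons is not given here, so the unadjusted counts have no background beside them. The call of *MCM10* was lost in all 6 fits without 1 library (adjusted p up to 0.138, without Luc Control KO replicate 1), while without TRA2B-OE Control KO replicate 3 the number of the 48 that fell was 8. The share of all genes that fell in that fit is not given here.

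In LN229 none of the 48 genes passed the limma test in any comparison. Of the 35 other replication genes, 1 passed in 1 comparison, the topoisomerase *TOP1* with TRA2B-OE and the *TRA2A* guide (0.27 ± 0.06, adjusted p = 0.0279). Luc TRA2A KO (1.83% of all genes fell and 1.96% rose) had all 48 values positive with a median of 0.21, with 2 at an unadjusted p below 0.05, both higher. Of all 18490 genes tested, 4002 had an unadjusted p below 0.05 (1910 lower, 2092 higher). Without Luc Control KO replicate 1 the median of the 48 was −0.02. That control library lay 0.40 below the control mean over the 48 genes, while the other controls lay 0.23 and 0.17 above. *RRM2*, for example, was at 161, 372 and 365 TPM in Luc Control KO, 297, 366 and 383 TPM in TRA2A KO and 174, 193 and 203 TPM in TRA2B KO. Replicate 1 of TRA2B-OE Control KO stood at the same low level, with *RRM2* at 164 TPM against 348 and 364 TPM.

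LN229 TRA2B KO had 45 of 48 values negative with a median of −0.38 and none past the test (0.346% of all genes fell and 0.211% rose). The lowest adjusted p was 0.0774, for *GINS3* at 12.8, 14.5 and 18.1 TPM in control and 9.68, 9.95 and 10.6 TPM in TRA2B KO, and 17 genes had an unadjusted p below 0.05, all lower. Of all 18490 genes tested, 4308 had an unadjusted p below 0.05 (2447 lower, 1861 higher). Without Luc Control KO replicate 1, 28 of the 48 fell and their median was −0.58. The share of all genes that fell in that fit is not given here, so the 28 have no background beside them. The 3 TRA2B KO libraries were alike, at 0.32 to 0.35 below the control mean over the 48 genes. TRA2B-OE Control KO had no gene at an unadjusted p below 0.05 (0.303% of all genes fell and 0.725% rose in the adjusted test; median −0.06), and the *TRA2A* guide with TRA2B-OE had 4, of which 1 was lower and 3 higher (3.88% of all genes fell and 2.17% rose; median 0.09). The sign of both medians turned without 1 library. For TRA2B-OE Control KO the median ran from −0.23 without Luc Control KO replicate 1 to 0.14 without TRA2B-OE Control KO replicate 1, and for the *TRA2A* guide with TRA2B-OE it was −0.11 without TRA2B-OE Control KO replicate 1 and up to 0.21 without replicate 3 of that group. The difference between the TRA2A KO responses with TRA2B-OE and with Luc was called for none of the 48 and for no other gene (0%), and none of the 48 had an unadjusted p below 0.05. In TRA2B-OE Control KO 2638 of all 18490 genes tested had an unadjusted p below 0.05 (1225 lower, 1413 higher). That number is not given here for the *TRA2A* guide with TRA2B-OE or for the difference.

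**Figure D5:**
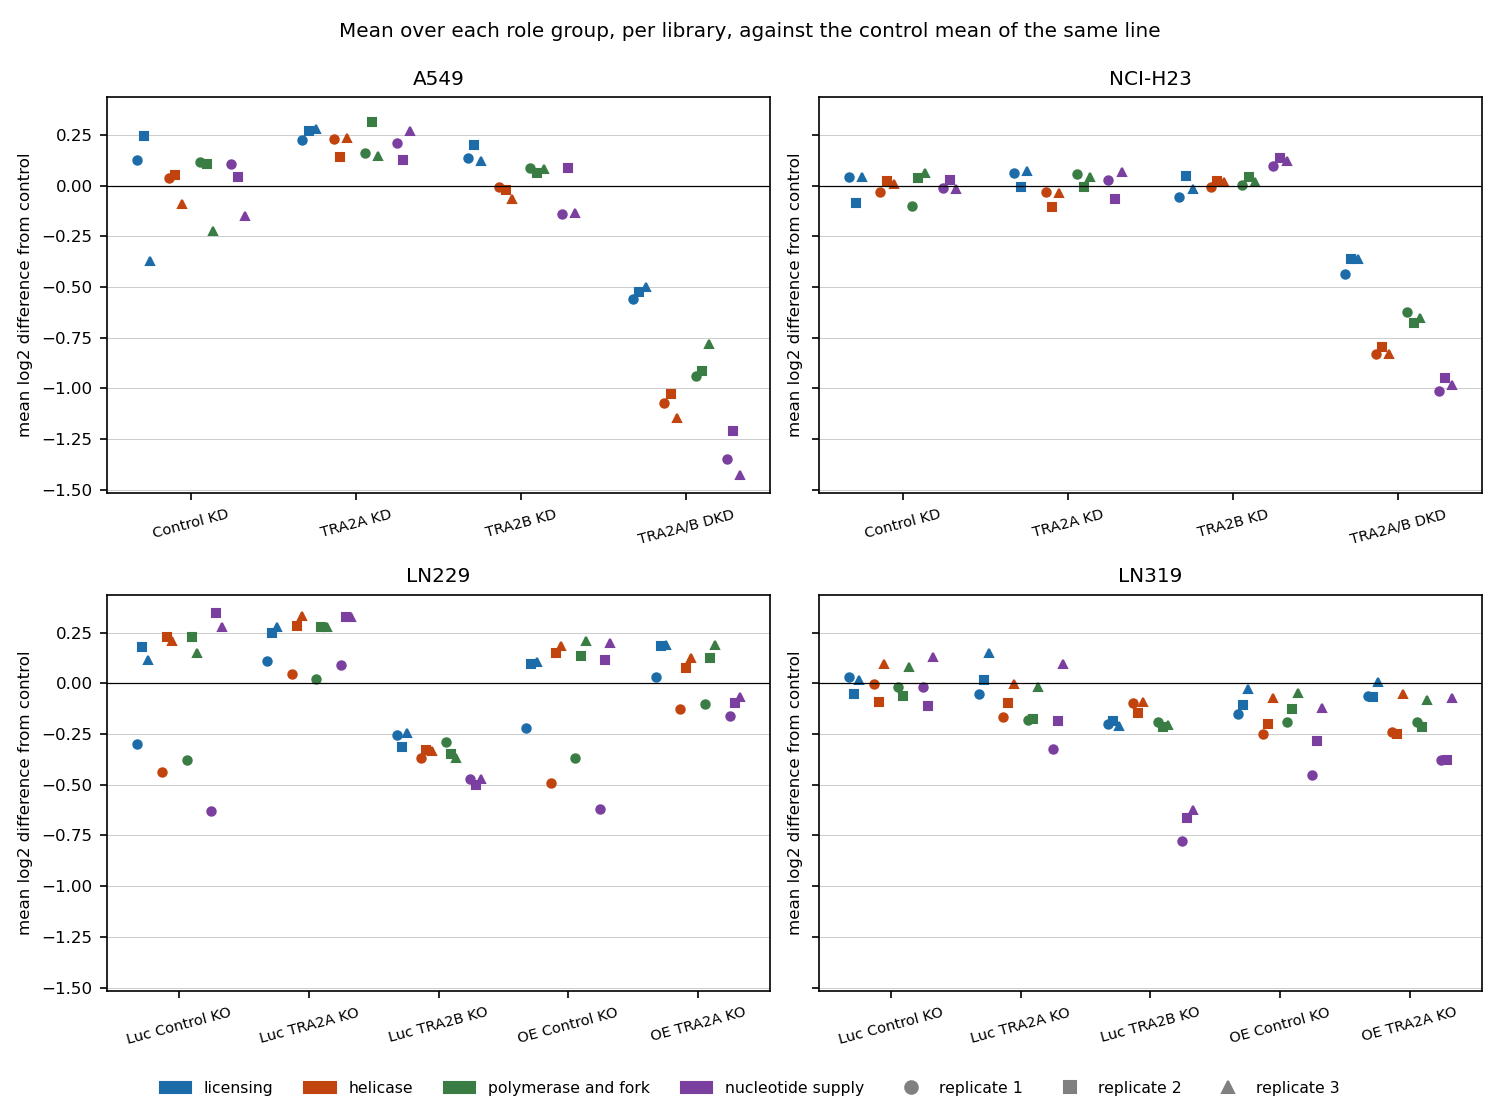
Mean log2 difference from the control mean of the same line over each role group (colours), for every library (symbol shape gives the replicate number), in the 4 cell lines on 1 shared axis. In A549 and NCI-H23 the 3 DKD libraries lie below all other libraries of their own line in every role group. Nucleotide supply lies lowest in LN319 TRA2B KO, and replicate 1 of the LN229 control groups lies about as low as the LN229 TRA2B KO libraries.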

How the data were processed

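Poly(A), directional libraries were sequenced with 150-bp paired-end reads. The authors quantified transcripts with kallisto 0.48.0 on Gencode v34 and deposited gene-level TPM, 1 table per cell line; STAR 2.7.3 is also named in the processing notes. TPM summed to 928908 to 964610 per library over the rows given. TPM keeps no read depth, so depth is unknown and no counting interval is given. kallisto's strand option is not given in the sources used here; 19 of the 48 genes share exonic bases with an antisense gene, 7 with a gene on the same strand, and 8 have pseudogene rows.

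A gene was tested in a line where 4 or more libraries held it at 1 TPM or above (A549 16405 genes, NCI-H23 16293, LN229 18490, LN319 19303). Libraries were scaled by a trimmed mean of M values without weights (trims of 30% and 5%; factors 0.898 to 1.17), and log2(value + 0.1) was fitted with limma 3.58.1 (R 4.3.3) with a mean-variance trend, 1 fit over all groups of a line. The study's voom step needs counts and was not repeated. The script was tested on simulated data. With 3 libraries a group an exact permutation test of 1 gene cannot go below p = 0.1, so only the fit across all genes was used. Replicate numbers were not used to pair the libraries, since in no comparison did all 3 same-numbered pairs correlate above 0.1 (range −0.154 to 0.212). This rule cannot exclude an effect shared by 1 replicate number. In LN229 the replicate 1 pairs reached 0.212 (TRA2B-OE Control KO with Luc Control KO) and 0.160 (Luc TRA2A KO with Luc Control KO).

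All 48 genes may be named; named in detail are examples fixed per role, up to 3 of the largest calls per role without overlap, genes moving against their group, and up to 3 of the largest calls among 35 other replication genes. *RRM2B*, *POLD4*, *MCM9*, *TOP1* and *POLE2* without replicate 3 were singled out after their values were seen. The genes and lists were chosen with earlier results of these data known. Alternatives were another pseudocount, other filters, scaling, a replicate block, fits of only the compared groups and leaving out each library; removal of a length and GC trend was added after seeing the data. Gene positions are from Gencode v44 on hg38. Other tools were Python 3.11.15, pandas 2.3.3, numpy 2.4.6 and matplotlib 3.10.9.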

Additional observations from a re-analysis of the deposited data

Results flagged for a closer look

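Of the genes compared between lines under the same perturbation, 2 had values of opposite sign with no overlap between perturbed and control libraries in either line. *MCM8* in TRA2B KD was at −0.27 on the log2 scale in A549 and 0.19 in NCI-H23 (limma adjusted p = 0.319 and 0.345). *POLE* in TRA2B KO was at −0.41 in LN229 and 0.25 in LN319 (adjusted p = 0.243 and 0.0487). The difference between the lines was not tested for either gene. Lack of overlap was common among all genes by unscaled TPM: 1955 lower and 1318 higher of 16405 in A549 TRA2B KD, and 575 and 3430 of 16293 in NCI-H23 TRA2B KD. In LN229 TRA2B KO it was 1722 and 2641 of 18490, and the LN319 numbers are not given here. How many of all genes had opposite signs in this way was not counted, so the 2 genes have no background beside them. The DKD response beyond the sum of the single knockdowns, which is itself a tested difference, was called for 37 members in A549 and 40 in NCI-H23, all lower.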

How the results depend on the processing

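No called log2 fold change among the 48 genes changed sign under any alternative run. The 37 calls of the A549 DKD kept direction and call in 510 of 555 alternative values, and 30 of the 37 genes kept the call in every alternative but the fold threshold; for the NCI-H23 DKD this was 580 of 630 values and 36 of 42 genes. Beyond the sum of the single knockdowns it was 715 of 777 values in A549 and 720 of 840 in NCI-H23, and in LN319 TRA2B KO 283 of 350 values and 13 of 25 genes. Asking also for a log2 fold change above 1 left 20 genes in the A549 DKD, 11 in the NCI-H23 DKD, 8 in NCI-H23 beyond the sum, and 0 in NCI-H23 TRA2A KD, LN319 TRA2A KO, LN319 TRA2B KO and LN319 TRA2B-OE Control KO. The single call in NCI-H23 TRA2A KD went to 0 with no filter, TPM as deposited, quantile normalization, the replicate block and only the compared groups. LN319 TRA2A KO had 4 calls, 7 with a filter of 5 TPM, 9 with TPM as deposited and 8 with quantile normalization. LN319 TRA2B-OE Control KO had 1 call, 0 with no filter, TPM as deposited, quantile normalization or only the compared groups, and 2 with a filter of 5 TPM. Leaving out 1 library gave 31 to 42 calls in the A549 DKD, 32 to 42 beyond the sum in A549, 39 to 42 in the NCI-H23 DKD, 32 to 42 beyond the sum in NCI-H23, 0 to 0 in NCI-H23 TRA2A KD, 3 to 5 in LN319 TRA2A KO, 18 to 25 in LN319 TRA2B KO, 0 to 8 in LN319 TRA2B-OE Control KO and 0 to 28 in LN229 TRA2B KO, and 0 in the other comparisons; a group left with 2 libraries shares the spread of its line. The replicate block, which fits an effect shared by equal replicate numbers, gave 4 calls in LN229 TRA2B KO, 9 in LN319 TRA2A KO and 11 in LN319 TRA2B-OE Control KO. Apart from the single call in NCI-H23 TRA2A KD, it moved no other count by over 1.5 times (37 and 42 in the DKDs). The cause was not tested for these changes, and the share of all genes called in each alternative is not given here.

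TPM as deposited moved the median of all genes to 0.11 in the A549 DKD, 0.17 in the NCI-H23 DKD and 0.12 in LN319 TRA2B KO on the log2 scale, with the members at −0.87, −0.57 and −0.14, and to 0.26 in A549 beyond the sum, with the members at −0.90 and 29 calls. Removing a trend with length and GC left 40 and 45 calls in the A549 and NCI-H23 DKDs; in LN229 and LN319 only 77.7% and 77.5% of tested genes had both values, so that check was void and not run there. With depth unknown, how far low levels such as those of *CDC7* in A549 limit a call cannot be given.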
